A study of Homo sapiens with 6 samples.

Results

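The 8 genes of the cytosolic chaperonin CCT, TCP1, CCT2, CCT3, CCT4, CCT5, CCT6A, CCT7 and CCT8, were described at gene and isoform level in HMC3 cells, an immortalized human microglial cell line, after ionizing radiation. They were chosen by gene name, with earlier results of the same comparison known, so the calls below describe the family and are not independent evidence of its direction. Irradiated cells (15 Gy, 3 cultures) were compared with control cells (0 Gy, 3 cultures), all collected 24 h later, and Oxford Nanopore libraries were made from their RNA by PCR of the cDNA. Radiation dose is the sole difference between the groups that the labels give. The table held 90 transcripts of the 8 genes, of which 61 passed the limits on low counts, and all 8 genes were among the 11118 genes tested out of 31768. The other 29 transcripts held 81 counts in all 6 libraries together, at most 2 in a library.

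CCT, also called TRiC, is a barrel of stacked rings in which each ring is built from 8 different but related subunits, named alpha to theta in the order TCP1, CCT2, CCT3, CCT4, CCT5, CCT6A, CCT7 and CCT8. The subunits bind and hydrolyse ATP, which closes a built-in lid over the enclosed protein. Actin and tubulin are its best known clients, prefoldin hands them over, and many proteins with WD40 repeats also pass through it. The complex needs all of its subunits, so the relative amounts of their mRNAs are of interest beside the level of each.

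The libraries held 6292049, 6392130 and 6909420 counts in irradiated cells and 4870897, 8552647 and 9082409 in control cells. Values are given as CPM, normalised read counts after TMM scaling to a common library size, which sets the bulk of genes equal between libraries. The TMM factors were 1.09 to 1.24 in irradiated and 0.793 to 0.928 in control libraries. Scaling by library totals alone moved the median over all genes by 0.448 on the log2 scale (0.08 under TMM, 0.53 under library totals), and both scalings are given wherever a direction depends on them. CDKN1A, which encodes the cell cycle inhibitor p21 and was the check on irradiation, had 596, 600.2 and 613 CPM in irradiated cells and 159, 176 and 192 CPM in control cells. Of 10 microglial and macrophage markers, 3 reached 1 CPM in a library, and the defining genes CX3CR1, P2RY12, TMEM119 and ITGAM had no counts. The microglial list summed to 31.9 to 37.3 CPM in irradiated and 23.3 to 34.1 CPM in control libraries. Most of that sum was CD68, at 30.0 to 34.5 CPM in irradiated and 21.9 to 33.1 CPM in control libraries. The fibroblast and pericyte list summed to 279.8 to 335 CPM in irradiated and 325 to 345 CPM in control libraries. Its members went both ways, with COL1A2 (log2 fold change 1.35) and ACTA2 (1.80) higher and THY1 (-0.63) and NT5E (-0.65) lower in irradiated cells. COL1A1 (0.12, edgeR adjusted p = 0.515) and PDGFRB (-0.05, edgeR adjusted p = 0.958) did not pass the test. The part of these differences in the results below was not tested. All samples were bulk cultures of the HMC3 line. Fewer cells that express a gene and less of its RNA per cell cannot be told apart in them.

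The first question was whether the amount of CCT mRNA differed after irradiation. On the TMM scale 7 of the 8 subunits had a negative log2 fold change and only CCT8 passed the test, while with library totals all 8 were positive and 4 others passed it as higher. The theta subunit CCT8 (ENSG00000156261.13, GRCh38 chromosome 21, 29055805 to 29073797) had 313, 323 and 324 CPM in irradiated cells and 426, 451 and 407 CPM in control cells. All 3 irradiated libraries lay below all 3 controls. The log2 fold change of CCT8 was -0.42, with a standard error of 0.109 and an edgeR adjusted p of 0.0111 (quasi-likelihood test, adjusted over all genes by Benjamini-Hochberg). With library totals its log2 fold change was 0.04 (edgeR adjusted p = 0.717). Without irradiated culture 3, the edgeR adjusted p of CCT8 was 0.054. Of all 11118 genes, 14.1% fell and 11.6% rose at an adjusted p under 0.05, against 1 of 8 and 0 of 8 subunits. With an absolute log2 fold change over 1 as a further limit, 5.7% of genes and no subunit passed.

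The eta subunit CCT7 (ENSG00000135624.17, chromosome 2, 73233420 to 73253021) had 326, 348 and 339.6 CPM in irradiated cells and 409, 426 and 413 CPM in control cells. Its groups did not overlap, and its log2 fold change of -0.30 (standard error 0.108) missed the limit at an edgeR adjusted p of 0.0507. TCP1, the alpha subunit (ENSG00000120438.12, chromosome 6, 159778498 to 159789749), had 70.1, 63.1 and 62.4 CPM in irradiated cells and 83.5, 77.7 and 81.9 CPM in control cells (log2 fold change -0.31, edgeR adjusted p = 0.0847). The zeta subunit CCT6A (ENSG00000146731.11, chromosome 7, 56051630 to 56063989) had 97.3, 91.4 and 103 CPM in irradiated cells and 129, 123 and 107 CPM in control cells (log2 fold change -0.30, edgeR adjusted p = 0.093). Neither gene's groups overlapped, although the highest irradiated and the lowest control value of CCT6A lay close together. CCT5, the epsilon subunit (ENSG00000150753.12, chromosome 5, 10249921 to 10266412), whose mutation causes a hereditary sensory neuropathy, had 235, 261 and 252 CPM in irradiated cells and 296, 297 and 284 CPM in control cells (log2 fold change -0.23, edgeR adjusted p = 0.135).

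The groups overlapped in the other 3 subunits. The beta subunit CCT2 (ENSG00000166226.13, chromosome 12, 69585334 to 69601570) had 86.4, 89.7 and 98.3 CPM in irradiated cells and 95.1, 107 and 97.0 CPM in control cells (log2 fold change -0.12, edgeR adjusted p = 0.495). CCT3, the gamma subunit (ENSG00000163468.15, chromosome 1, 156308968 to 156367873), had 222, 214 and 229.6 CPM in irradiated cells and 227, 234 and 233 CPM in control cells (log2 fold change -0.06, edgeR adjusted p = 0.733). The delta subunit CCT4 (ENSG00000115484.15, chromosome 2, 61868089 to 61888804) had 203, 221 and 209 CPM in irradiated cells and 199, 197 and 205 CPM in control cells, the sole subunit with a positive value on the TMM scale (log2 fold change 0.07, edgeR adjusted p = 0.661). In all, irradiated CPM lay entirely below control CPM in 5 of 8 subunits and in 21.3% of all genes. The median log2 fold change was -0.26 over the 8 subunits and 0.08 over all genes.

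**Figure D1:**
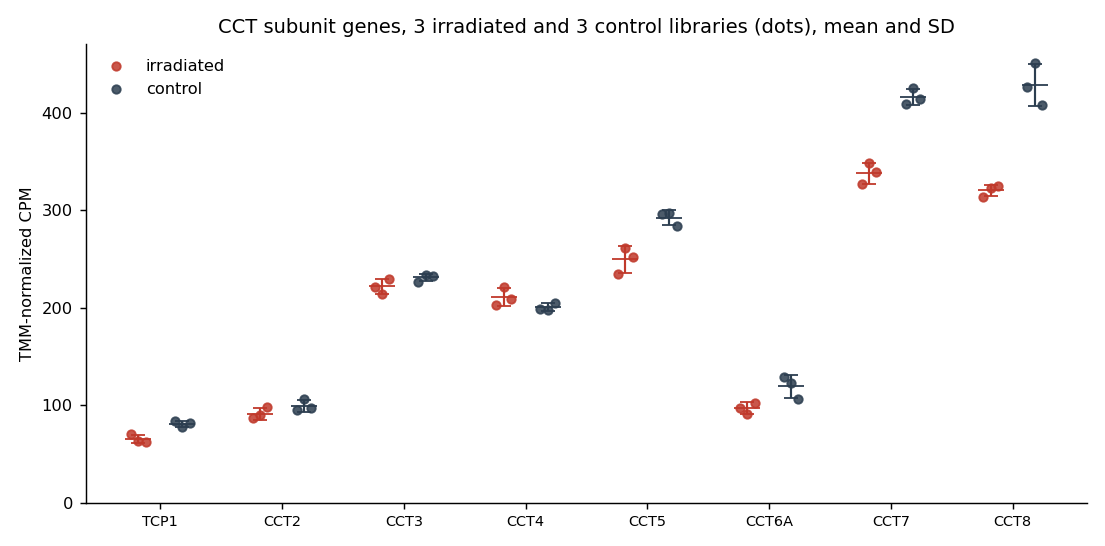
TMM-normalized CPM of the 8 CCT subunit genes in 3 irradiated (red) and 3 control (dark) libraries, with bars for the mean and SD. On this scale the irradiated libraries of TCP1, CCT5, CCT6A, CCT7 and CCT8 lie below the controls and those of CCT2, CCT3 and CCT4 overlap them, whereas with library totals no subunit lies below.

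The direction of the family depended on the scaling. CCT transcripts took 0.193, 0.176 and 0.191% of the kept counts in irradiated libraries and 0.158, 0.152 and 0.170% in control libraries, so their share of the sequenced counts was higher in irradiated cells. With library totals the log2 fold changes were 0.14 for TCP1, 0.33 for CCT2, 0.40 for CCT3, 0.52 for CCT4, 0.22 for CCT5, 0.16 for CCT6A, 0.15 for CCT7 and 0.04 for CCT8. CCT2, CCT3, CCT4 and CCT5 were then higher in every irradiated than in every control library and passed the edgeR test (adjusted p = 0.0418, 0.0109, 0.00303 and 0.0451), where 32.8% of all genes passed as higher. The median of the 8 was 0.19 on that scale, below the 0.53 of all genes. The change of scaling moved genes nearly alike (median shift 0.448 over all genes and 0.455 over the subunits). The distance of the subunits below the median gene was therefore bound to be similar under both scalings.

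**Figure D2:**
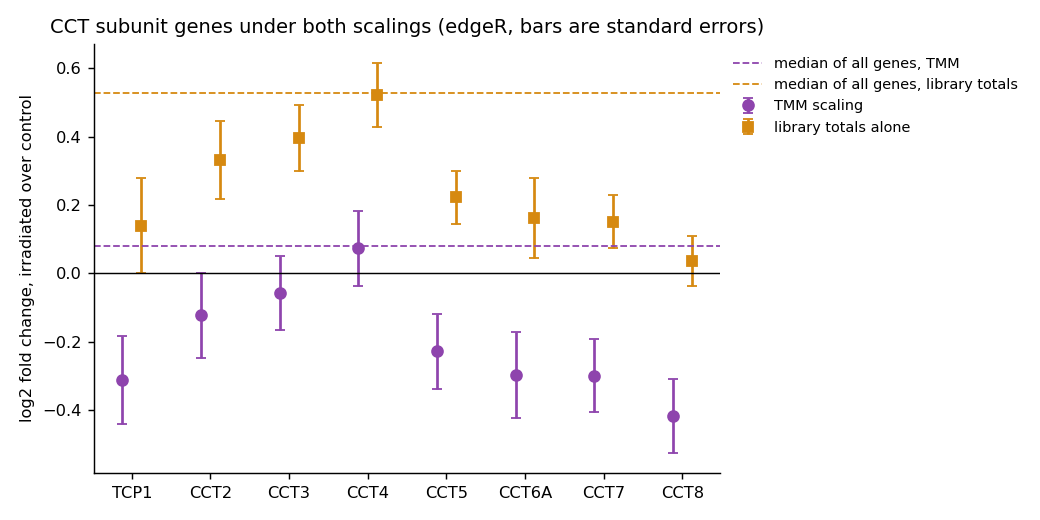
Log2 fold change (irradiated over control, edgeR, with standard errors) of each subunit under TMM scaling (circles) and library totals alone (squares), with the median of all genes on each scale as a dashed line. Under TMM 7 of 8 subunits are below 0 and under library totals all 8 are above 0, while on both scales every subunit lies at or below the median gene.

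Shares within the family do not depend on the scaling between libraries. CCT4 made up 13.1, 13.7 and 12.9% of the summed CCT counts in irradiated cells and 10.7, 10.3 and 11.2% in control cells. CCT3 made up 14.3, 13.3 and 14.2% in irradiated cells and 12.2, 12.2 and 12.7% in control cells. Both shares were higher in every irradiated library. CCT8 made up 20.19, 20.04 and 20.05% in irradiated cells and 22.9, 23.6 and 22.3% in control cells, and CCT7 made up 21.0, 21.6 and 21.0% in irradiated cells and 21.9, 22.3 and 22.6% in control cells. Those of CCT7 and CCT8 were lower in every irradiated library. The differences were 2.49, 1.55, -2.82 and -1.08 percentage points for CCT4, CCT3, CCT8 and CCT7, each with p = 0.1 in a two-sided exact permutation test, the smallest value 3 against 3 libraries allow. The other 4 subunits overlapped (exact permutation p = 0.3 to 1 over the 8 shares computed), and CCT5 held 15.6% in both groups.

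Levels between subunits were compared as CPM per kb of the longest annotated coding sequence, which is 1593 to 1668 bases in all 8. In irradiated cells the order was CCT7 (207 ± 6.62 CPM per kb, SD, n = 3), CCT8 (195 ± 3.61), CCT5 (154 ± 8.31), CCT3 (136 ± 4.62), CCT4 (130.5 ± 5.93), CCT6A (61.0 ± 3.58), CCT2 (57.0 ± 3.81) and TCP1 (39.1 ± 2.56). The libraries of CCT3 and CCT4 overlapped there, as did those of CCT6A and CCT2. In control cells CCT8 (260.4 ± 13.2 CPM per kb) and CCT7 (255 ± 5.30) overlapped at the top, and the further order was the same, with CCT5 at 180.05 ± 4.60 and TCP1 at 48.6 ± 1.80. The mRNAs of the 8 subunits, which stand in equal numbers in the complex, thus spanned a wide range in both groups, with TCP1 lowest in every library.

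The second question was whether the isoforms of each subunit were used differently. The isoform fraction (IF) of a transcript is its share of its gene's kept counts in a library, and dIF is the mean IF in irradiated minus that in control cells, in percentage points. In all 8 subunits the transcript with most counts, a protein-coding one, made up less of the gene in every irradiated library than in any control library. Across the 4993 genes with a mean of at least 100 counts this held for 52.7% of the most counted transcripts, whose median dIF was -2.39 points. Per library the median share of the most counted transcript in those genes was 30.2, 31.6 and 30.5% in irradiated and 34.7, 34.9 and 33.1% in control cells. Among the 782 genes with a mean of at least 1000 counts, a limit chosen after seeing the data, it was lower in every irradiated library in 83.6%, with a median dIF of -2.66 points. The part of this series-wide shift in the CCT values was not tested.

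CCT5-201 (ENST00000280326, 11 exons) had an IF of 39.1, 43.0 and 42.5% in irradiated cells and 62.6, 65.1 and 53.9% in control cells. CCT3-201 (ENST00000295688, 14 exons) had 33.0, 39.1 and 33.8% in irradiated cells and 53.0, 57.2 and 46.4% in control cells. Neither overlapped, and both passed the usage test (edgeR's diffSpliceDGE) with a dIF of -18.9 points (adjusted p = 0.0251) and -16.9 points (adjusted p = 0.0391). CCT6A-201 had 49.8, 56.5 and 52.6% in irradiated cells and 72.2, 72.5 and 66.2% in control cells (dIF -17.3 points, diffSpliceDGE adjusted p = 0.139). CCT2-201 had 44.0, 46.5 and 41.7% in irradiated cells and 61.5, 59.9 and 51.7% in control cells (dIF -13.6 points, diffSpliceDGE adjusted p = 0.217). Their groups did not overlap either. CCT4-201 had 41.5, 43.6 and 42.4% in irradiated cells and 56.1, 57.0 and 48.4% in control cells (dIF -11.3 points, diffSpliceDGE adjusted p = 0.286). TCP1-201 had 50.4, 58.5 and 57.6% in irradiated cells and 68.2, 70.7 and 61.7% in control cells (dIF -11.3 points, diffSpliceDGE adjusted p = 0.54). With limma's diffSplice in its place, the adjusted p was 1.84e-05 for CCT5-201, 4.37e-05 for CCT6A-201, 0.00139 for CCT3-201, 0.00728 for CCT2-201, 0.0203 for CCT4-201 and 0.0577 for TCP1-201. In simulated data diffSpliceDGE missed most main transcripts whose share had been lowered and limma's diffSplice found most of them. The simulation moved a fixed share from the main transcript to a single other isoform, at equal depth in all libraries. In these data depth differed and several other isoforms gained share, so the simulation cannot decide which of the 2 tests is right here.

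The main transcripts of CCT7 and CCT8 came as pairs with nearly the same count in every library. CCT7-215 and CCT7-201 differed by at most 5 counts, and CCT8-201 and CCT8-204 by at most 23. Members of such a pair cannot be told apart by their counts, so each pair is given as a sum. CCT7-215 and CCT7-201 together made up 59.1, 64.2 and 60.3% of CCT7 in irradiated cells and 79.1, 80.9 and 72.1% in control cells. CCT8-201 and CCT8-204 together made up 54.5, 61.8 and 56.0% of CCT8 in irradiated cells and 76.2, 78.7 and 68.6% in control cells. Both sums were lower in every irradiated library, with a dIF of -16.1 points for CCT7 and -17.1 points for CCT8, and neither sum passed the usage test (diffSpliceDGE adjusted p = 0.394 and 0.214). Taken singly, limma's diffSplice gave an adjusted p of 0.0271 for CCT7-215, 0.0254 for CCT7-201, 0.000473 for CCT8-201 and 0.00076 for CCT8-204, each with a dIF under 10 points in size. Control 3 had the lowest control share in all 8 subunits and so lay nearest to the irradiated libraries.

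**Figure D3:**
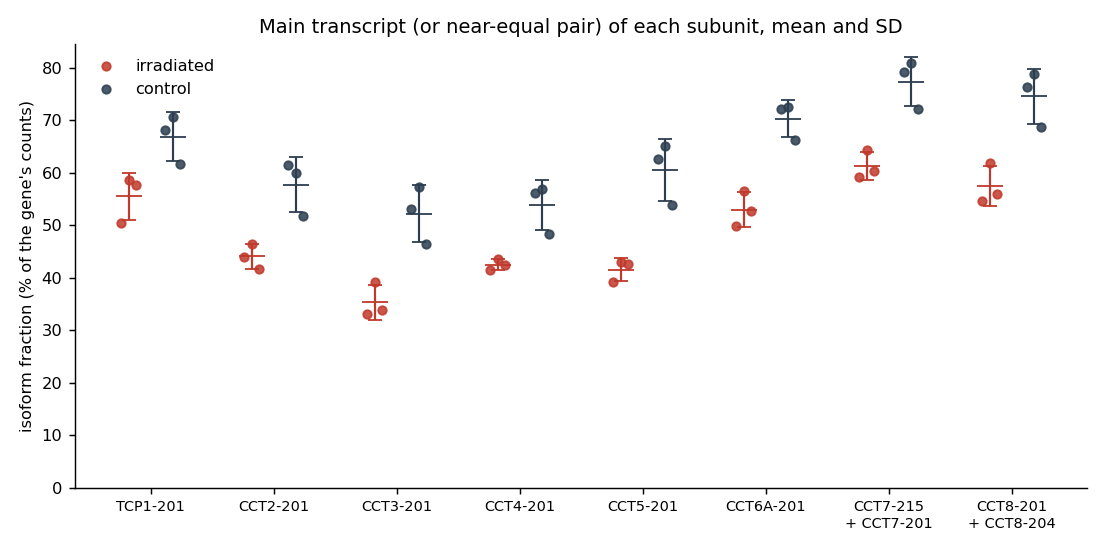
Isoform fraction (percent of the gene's counts) of the main transcript of each subunit, or of its near-equal pair for CCT7 and CCT8, in 3 irradiated (red) and 3 control (dark) libraries, with the mean and SD. All irradiated points lie below all control points in each of the 8 subunits, and the lowest control point is control 3 throughout.

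Of the 61 CCT isoforms, 4 were called for usage at an adjusted p under 0.05 and an absolute dIF of at least 10 points, which 0.404% of all 74843 transcripts passed. They were the losses of CCT5-201 and CCT3-201 and the gains of TCP1-215 and CCT6A-202. At the adjusted p alone, 20 CCT isoforms (14 gains, 6 losses) and 4.44% of all transcripts passed. With limma's diffSplice and the same limits, 6 CCT isoforms and 1.22% of all transcripts passed: the losses of CCT2-201, CCT3-201, CCT4-201, CCT5-201 and CCT6A-201 and the gain of TCP1-215. No CCT isoform passed in diffSpliceDGE without irradiated culture 1, irradiated culture 3, control 1 or control 2 (0 in each case), while 4 passed without irradiated culture 2 and 8 without control 3. The dIF of the 4 called isoforms kept its sign in each of these fits and was at least 10 points in size.

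In every subunit at least 1 other isoform gained share. Shares within a gene add up to its whole, so the loss of the main transcripts required gains among the other isoforms. The gains below show which isoforms took up the share and are not evidence apart from that loss. Beside the 10 main transcripts (near-equal partners included), 17 isoforms reached a mean IF of 10% in a group. Of these, 11 reached it in both groups, and each of the 11 was higher in every irradiated than in every control library, with a dIF of 4.84 to 11.4 points. The other 6 (CCT3-205, CCT4-203, CCT6A-204, CCT8-210, CCT8-211 and CCT8-212) reached 10% in irradiated cells alone, so their higher mean share was fixed by the limit. TCP1-215 (ENST00000544255), a coding isoform of 8 exons and 996 coding bases against 1668 in TCP1-201, made up 31.1, 29.9 and 27.0% of TCP1 in irradiated cells and 15.6, 16.7 and 21.9% in control cells (dIF 11.3 points, diffSpliceDGE adjusted p = 0.0158). CCT6A-202 (ENST00000335503) made up 35.9, 31.3 and 34.3% in irradiated cells and 19.8, 21.2 and 26.2% in control cells (dIF 11.4 points, diffSpliceDGE adjusted p = 0.0116). Of the 11, 7 passed the usage test at the adjusted p alone.

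Several of the gaining coding isoforms differ from the full-length transcript by exons skipped near the start of the coding sequence. The skipped stretches and the joins that replace them are printed because they show where the isoforms part from the full-length transcript. They come from the GENCODE release 29 transcripts (GRCh38), 5′ to 3′. In the full-length line the skipped bases are in capitals between 30 bases on each side, and in the isoform line the capitals mark the 5 bases on each side of the join.
CCT4-201: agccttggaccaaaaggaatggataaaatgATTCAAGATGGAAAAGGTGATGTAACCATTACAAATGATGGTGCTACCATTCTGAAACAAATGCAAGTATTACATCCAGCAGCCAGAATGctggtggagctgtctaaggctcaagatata
CCT4-204: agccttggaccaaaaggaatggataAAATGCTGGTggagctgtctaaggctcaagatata
CCT6A-201: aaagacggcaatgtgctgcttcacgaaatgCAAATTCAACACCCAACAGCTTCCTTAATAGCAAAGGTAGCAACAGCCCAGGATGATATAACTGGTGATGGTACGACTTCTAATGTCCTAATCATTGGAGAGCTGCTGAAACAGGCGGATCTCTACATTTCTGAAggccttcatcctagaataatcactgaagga
CCT6A-202: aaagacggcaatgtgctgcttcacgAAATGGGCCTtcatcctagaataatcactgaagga
CCT5-201: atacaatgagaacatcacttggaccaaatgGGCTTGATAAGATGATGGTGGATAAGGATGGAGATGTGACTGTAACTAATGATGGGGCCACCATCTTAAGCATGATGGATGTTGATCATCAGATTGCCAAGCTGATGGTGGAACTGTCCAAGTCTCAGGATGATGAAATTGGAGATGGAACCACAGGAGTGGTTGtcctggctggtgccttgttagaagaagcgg
CCT5-205: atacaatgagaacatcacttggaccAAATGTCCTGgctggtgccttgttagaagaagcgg
CCT3-201: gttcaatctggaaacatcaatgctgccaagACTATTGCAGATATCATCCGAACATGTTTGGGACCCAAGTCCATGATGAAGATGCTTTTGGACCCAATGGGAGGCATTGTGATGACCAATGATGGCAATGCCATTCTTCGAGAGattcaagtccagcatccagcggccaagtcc
CCT3-204: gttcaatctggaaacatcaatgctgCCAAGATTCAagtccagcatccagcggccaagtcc
CCT4-204 lacks exon 3 of CCT4-201 (90 bases, chr2:61883459-61883548, minus strand), CCT6A-202 lacks exon 3 of CCT6A-201 (135 bases, chr7:56054369-56054503, plus strand), CCT5-205 lacks exon 3 of CCT5-201 (165 bases, chr5:10254674-10254838, plus strand) and CCT3-204 lacks exons 3 and 4 of CCT3-201 (114 bases within chr1:156334713-156334918, minus strand). Each of these lengths is a multiple of 3, so the reading frame after the join is kept. The join of CCT5-205 is shared by CCT5-213, and CCT5-205 also starts with another first exon, so its 1344 coding bases fall short of the 1623 in CCT5-201 by more than the skipped exon. CCT3-203, which has nearly the same counts as CCT3-204 in every library, lacks only exon 2 (62 bases, not a multiple of 3), is annotated as a target of nonsense-mediated decay and has 120 annotated coding bases.

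CCT4-204 made up 34.2, 33.1 and 34.2% of CCT4 in irradiated cells and 28.2, 26.7 and 31.9% in control cells, a dIF of 4.84 points that did not pass the usage test (diffSpliceDGE adjusted p = 0.687). CCT5-205 made up 19.2, 18.2 and 19.0% of CCT5 in irradiated cells and 11.0, 10.3 and 13.6% in control cells (dIF 7.19 points, diffSpliceDGE adjusted p = 0.004). Both had groups that did not overlap, with control 3 again the nearest. CCT3-203 and CCT3-204 together made up 49.6, 45.2 and 48.4% of CCT3 in irradiated cells and 34.5, 31.9 and 40.4% in control cells. CCT5-203, a shorter coding isoform that also has 11 exons, made up 26.1, 24.0 and 24.8% in irradiated cells and 15.5, 14.8 and 19.9% in control cells (dIF 8.25 points, diffSpliceDGE adjusted p = 0.0196). CCT7-216 and CCT7-202, with 10 and 7 exons against 13 in CCT7-215, gained 8.35 and 8.29 points (diffSpliceDGE adjusted p = 0.00139 and 0.000712). CCT8-212 and CCT8-211, another near-equal pair, together made up 31.8, 27.1 and 31.0% of CCT8 in irradiated cells and 17.5, 15.5 and 22.5% in control cells. Once such near-equal transcripts were summed before the test, a choice made after seeing the data, this pair was among 4 called units (dIF 11.4 points, diffSpliceDGE adjusted p = 0.00415) and CCT3-201 was not.

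Several short transcripts that start inside the gene and have no annotated coding sequence rose as well. CCT3-205, CCT4-203, CCT6A-204 and CCT8-210 reached the 10% limit in irradiated cells only, so their higher mean share followed from that limit. CCT2-211 reached it in both groups. CCT4-203 (ENST00000461540, 4 exons, 638 bases) had 292, 261 and 308 counts in irradiated cells and 63, 101 and 216 in control cells. Its IF was 19.3, 17.6 and 18.9% in irradiated cells and 7.94, 7.83 and 13.0% in control cells. CCT4-203 rose as a transcript by 0.94 on the log2 scale (edgeR adjusted p = 1.84e-06) and gained 8.99 points of IF (diffSpliceDGE adjusted p = 0.000295). CCT3-205, with 6 exons, had an IF of 14.8, 12.4 and 15.9% in irradiated cells and 6.64, 6.29 and 9.83% in control cells (log2 fold change 0.80, edgeR adjusted p = 9.58e-05). CCT2-211, which holds the last exon and a retained intron, had an IF of 17.5, 17.7 and 20.5% in irradiated cells and 10.8, 8.17 and 13.0% in control cells (log2 fold change 0.63, edgeR adjusted p = 0.00743). CCT6A-204 and CCT8-210, both annotated with a retained intron, had log2 fold changes of 0.59 and 0.49 (edgeR adjusted p = 0.0246 and 0.0233). In none of CCT4-203, CCT3-205, CCT2-211, CCT6A-204 and CCT8-210 did the IF values of the groups overlap. CCT6A-203, of the same kind, had 1 to 4 counts per library and a log2 fold change of -0.91 (edgeR adjusted p = 0.557). The 11 isoforms that reached 10% in both groups had log2 fold changes of 0.15 to 0.63 under TMM and 0.65 to 1.13 with library totals.

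**Figure D4:**
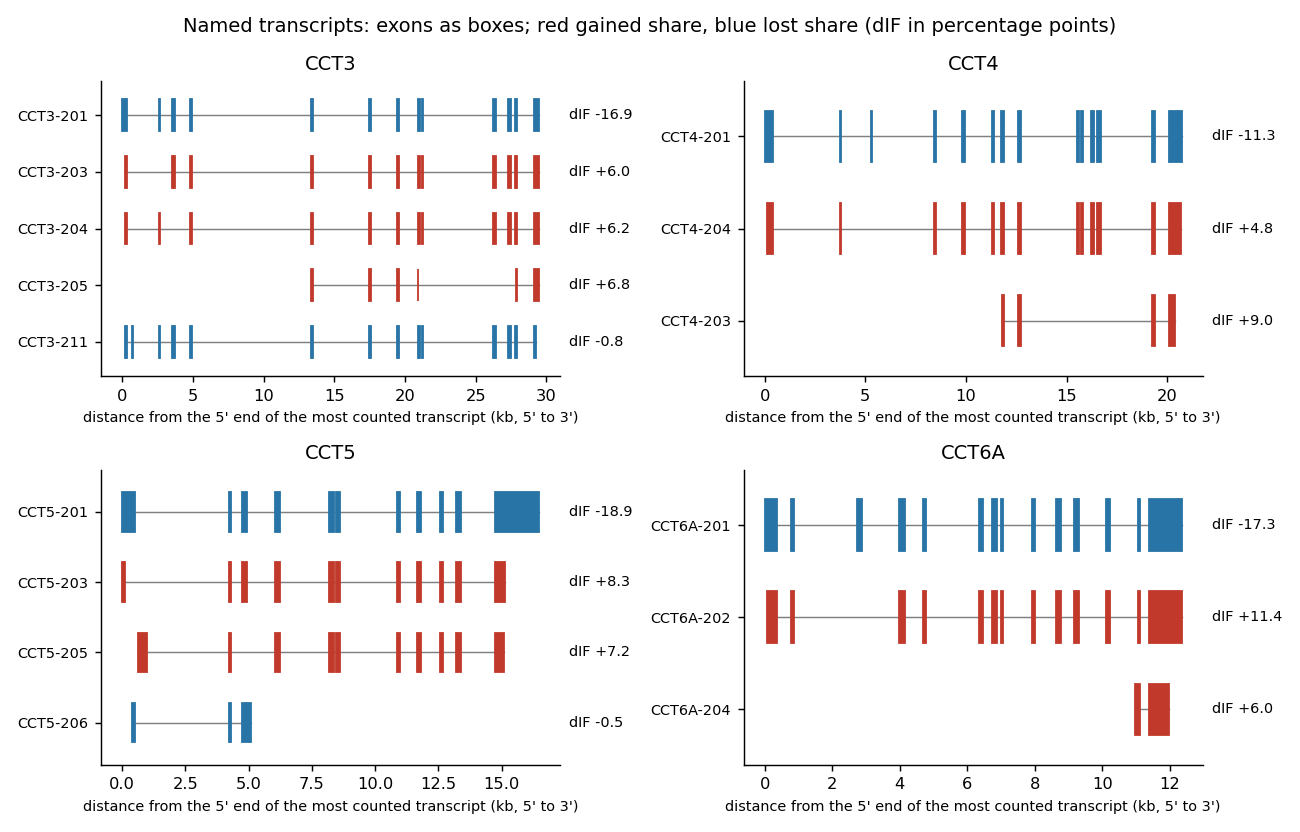
Exons (boxes) of the named transcripts of CCT3, CCT4, CCT5 and CCT6A, drawn as distance in kb from the 5′ end of the gene's most counted transcript, with the dIF of each in percentage points at the right (red gained, blue lost). All gaining isoforms shown overlap the last exon of the most counted transcript, while CCT5-206, which overlaps the first exon and not the last, lost share. The most counted transcripts themselves and CCT3-211 (dIF -0.81 points), which overlaps both their ends, also lost share.

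The pattern was set out by which end of the gene's most counted transcript an isoform shares. Of 11 CCT isoforms that overlap its last exon and not its first, 10 had a positive dIF, 9 were higher in every irradiated library, and 6 rose in the transcript test. Of 23 isoforms that overlap its first exon and not its last, 10 reached the limit of 3 counts in control libraries only and 1 in irradiated libraries only, so the direction of these followed from the limit. Of the other 12, 11 had a negative dIF, 3 were lower in every irradiated library, and 3 fell in the transcript test. Of 18 that share both ends, 13 had a positive dIF, with the near-equal partners CCT7-201 and CCT8-204 among the 5 that did not. Summed over the 8 genes, isoforms with the last exon only took 18.4, 16.4 and 18.4% of CCT counts in irradiated cells and 9.63, 9.03 and 12.6% in control cells. Those with the first exon only took 0.982, 1.36 and 1.01% in irradiated cells and 1.82, 2.02 and 1.67% in control cells.

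The split between isoforms with the last exon only and those with the first exon only was also present across the series. The gain of isoforms that share both ends was not. Of 13280 isoforms of all genes with the last exon only, 19.0% rose and 2.88% fell in the transcript test, with a median log2 fold change of 0.48. Of 7767 with the first exon only, 1.08% rose and 12.1% fell, with a median of -0.69. Of 16849 that share both ends, 8.88% rose and 13.4% fell, with a median of 0.04. The part of the limit on low counts in these series-wide shares was not tested. Isoforms with the last exon only took 18.9, 17.0 and 18.4% of all counts on annotated transcripts in irradiated cells and 13.0, 12.8 and 14.8% in control cells, a difference of 4.57 points against 7.30 points for CCT. Isoforms that share both ends took a mean of 43.8% of CCT counts in irradiated and 38.3% in control cells, a difference of 5.50 points. Over all genes the difference of that class had the other sign, at -1.13 points. Whether the CCT differences were larger than those of other genes was not tested. How far the reads of each library reached toward the 5′ end was not analysed here, and its part in the isoform results was not tested.

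**Figure D5:**
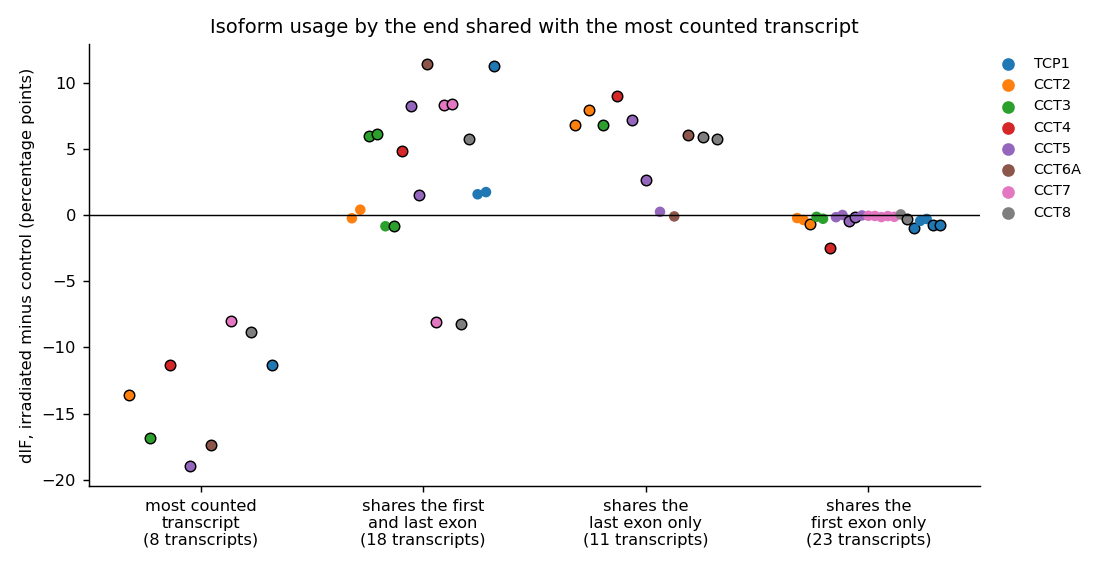
dIF (irradiated minus control, percentage points) of 60 CCT isoforms, grouped by the exons they share with the most counted transcript of their gene and coloured by gene; black outlines mark isoforms whose groups do not overlap. The 8 most counted transcripts lie between -18.9 and -8.02 points, 10 of the 11 isoforms with the last exon only lie above 0, and 21 of the 23 with the first exon only lie below 0, of which 10 passed the limit on low counts through control libraries only.

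Tested as single transcripts, 24 of the 61 CCT isoforms passed at an adjusted p under 0.05, 16 lower and 8 higher, where 10.7% of all transcripts fell and 8.54% rose. With library totals the split turned round, with 27 calls, 19 higher and 8 lower, where 25.6% of all transcripts rose and 3.28% fell. The 10 main transcripts had log2 fold changes of -0.86 to -0.32 under TMM, and 9 of them fell in the edgeR test, CCT4-201 being the exception (edgeR adjusted p = 0.162). With library totals they ran from -0.35 to 0.19, and 3 of the 10 (CCT5-201, CCT8-201 and CCT8-204) fell in the edgeR test. CCT8-201 averaged 90.8 ± 7.61 CPM in irradiated cells and 165 ± 22.4 CPM in control cells (SD, n = 3 each), and CCT5-201 averaged 102 ± 10.7 CPM in irradiated cells and 180.5 ± 24.4 CPM in control cells. The CCT4 gene, whose CPM overlapped between groups, held a main transcript at 88.1 ± 6.39 CPM in irradiated and 109.8 ± 9.02 CPM in control cells beside CCT4-203 at 38.5 ± 0.116 CPM in irradiated and 19.6 ± 6.24 CPM in control cells.

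With an absolute log2 fold change over 1 as well, 6 CCT transcripts and 7.69% of all transcripts passed, all 6 lower. Each was a minor isoform of at most 27 counts in a library, and 5 of the 6 hold the first exon of the main transcript and not the last. TCP1-213 had 0, 0 and 0 counts in irradiated cells and 4, 3 and 3 in control cells, which against a floor of 3 counts over the irradiated group is at least 3.94-fold lower. TCP1-208 had 2, 0 and 1 counts in irradiated cells and 4, 6 and 8 in control cells (log2 fold change -2.72, edgeR adjusted p = 0.00694). CCT2-212 had 0, 1 and 1 counts in irradiated cells and 2, 8 and 5 in control cells (log2 fold change -2.96, edgeR adjusted p = 0.012). These 3 reached 3 counts in control libraries only, so their direction followed from that limit. CCT5-206 (log2 fold change -1.96), CCT3-211 (-1.53) and CCT8-208 (-1.35) had 2 to 12 counts per library in irradiated cells and 8 to 27 in control cells. The 28 isoforms not named by these rules had a mean IF of at most 9.02% and a dIF between -2.49 and 2.61 points, and 2 of them passed the transcript test, CCT4-202 lower (-0.55) and CCT5-210 higher (0.77).

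By annotated class, 31 of the 61 isoforms are protein-coding and 30 are not. The share of counts on the other classes (retained introns, processed transcripts and targets of nonsense-mediated decay) was higher in every irradiated library in CCT2, CCT3, CCT4, CCT5 and CCT6A, lower in every irradiated library in TCP1 and CCT8, and overlapping in CCT7. In CCT3 it was 41.8, 37.3 and 41.8% in irradiated cells and 27.9, 25.3 and 32.2% in control cells. Most of it lay on CCT3-203, which cannot be told apart by its counts from the coding CCT3-204. In CCT4 it was 24.3, 23.4 and 23.5% in irradiated cells and 15.6, 16.3 and 19.7% in control cells. Those of CCT2 and CCT6A differed by 7.04 and 5.93 points. In CCT8 it was 40.8, 41.8 and 40.9% in irradiated cells and 43.8, 44.7 and 42.9% in control cells, most of it on CCT8-204, whose counts follow those of the coding CCT8-201. In TCP1 the share differed by -1.92 points and rested on 3 transcripts of at most 6 counts in a library. Of these, TCP1-213 and TCP1-214 reached 3 counts in control libraries only, so the limit on low counts favoured that direction. With no such limit the TCP1 difference was -2.46 points. Each of the 7 differences had p = 0.1 in a two-sided exact permutation test, the smallest possible, and CCT7 had p = 0.3. Summed over the family the share was 20.3, 19.4 and 20.6% in irradiated cells and 17.2, 17.4 and 18.3% in control cells, against means of 24.7% in irradiated and 22.7% in control cells for all transcripts with a class. The difference in means was 2.49 points for the family and 1.98 points for all transcripts with a class. The share of all genes whose groups separate in this measure was not computed, so the 7 subunits have no background beside them.

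The partners of CCT were compared from lists, none of which was tested as a set. Of all genes tested, 11.6% rose and 14.1% fell on the TMM scale, and 32.8% rose with library totals. The share of all genes that fell with library totals is not given here. Of the 6 prefoldin subunits, which pass unfolded actin and tubulin to CCT, 4 fell and none rose (median log2 fold change -0.42, and 0.04 with library totals). PFDN4 averaged 253 ± 35.3 CPM in irradiated and 416 ± 35.5 CPM in control cells (log2 fold change -0.72, edgeR adjusted p = 0.00131) and also fell with library totals. PFDN5 (-0.57), PFDN1 (-0.45) and PFDN2 (-0.38) passed the test on the TMM scale only. Of 4 CCT cofactors, 2 fell and none rose: PDCL3, a phosducin-like protein, at -0.73 (edgeR adjusted p = 0.00313) and PDCD5 at -0.39 (edgeR adjusted p = 0.0167), neither past the test with library totals (-0.28 and 0.06). Of 5 tested tubulin folding cofactors, TBCD (0.70) and TBCB (0.41) rose and the GTPase ARL2, a partner of TBCD, fell (-0.82), each in the same direction with library totals, where TBCE (0.46) also rose.

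Of 13 actin and tubulin clients, 4 rose and 5 fell on the TMM scale, where 11.6% of all genes rose and 14.1% fell. With library totals 6 rose and none fell, TUBB (0.66) and TUBA1C (0.61) being the 2 others, where 32.8% of all genes rose. The smooth muscle actin gene ACTA2 (log2 fold change 1.80), the neuronal tubulin gene TUBB3 (1.41), TUBB2B (1.10) and TUBB2A (0.54) rose on both scales. The main actin genes ACTB (-0.42, and 0.04 with library totals) and ACTG1 (-0.40, and 0.05 with library totals) fell on the TMM scale only, as did TUBA1B (-0.59) and TUBB4B (-0.33). TUBG1, the gamma tubulin of microtubule nucleation, likewise fell on the TMM scale alone (-0.55, and -0.10 with library totals). Of 10 WD40 and other clients, 3 rose and 2 fell, against 5 and 1 with library totals. CDC20, the mitotic activator of the anaphase-promoting complex, averaged 62.1 ± 4.97 CPM in irradiated and 109.9 ± 17.3 CPM in control cells (log2 fold change -0.82, edgeR adjusted p = 0.00117, lower on both scales), the G protein subunits GNB1 (0.48) and GNB2 (0.51) and the phosphatase subunit PPP2R2A (0.54) rose on both scales, and STRAP (-0.43) fell on the TMM scale only. Of 6 heat shock factors and HSP70 or HSP90 genes, HSF1, the heat shock transcription factor, rose on both scales (0.76), and HSPA8 (-0.54) and HSP90AB1 (-0.40) fell on the TMM scale only, whereas HSPA1A (0.95) and HSP90AA1 (0.61) passed as higher with library totals only. The mitochondrial chaperonin genes HSPD1 (-0.83) and HSPE1 (-0.55) fell, HSPE1 only on the TMM scale, and MKKS, a chaperonin-like protein of the primary cilium, fell on both (-1.11).

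CCT6B, the testis paralog of CCT6A, had 5, 7 and 1 counts in irradiated cells and 3, 4 and 6 in control cells, and the pseudogenes CCT6P3 and CCT8P1 held 79 and 2 counts in all, so copies with their own rows took few of the reads. Overlaps with genes on the opposite strand were taken over whole gene spans, introns included. TCP1 overlaps ACAT2 over 558 bases and CCT3 overlaps TSACC over 9682. CCT4 overlaps AC107081.2 over 17651 and COMMD1 over 81, and CCT5 overlaps AC012640.4 over 1816. The handling of strand is not given, and whether reads from such partners entered the counts was not tested. As a description over 6 libraries in 2 groups, the genes outside the family whose log2 CPM followed the mean of the 8 subunits most closely were ZNG1A, ELOF1, HMGN3, FRMD4A and R3HCC1 (Pearson's r of 0.998 to 0.999 in each case).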

How the data were processed

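Reads from 6 libraries (3 irradiated, 3 control, independent cultures) were aligned with minimap2 to GRCh38, assembled and quantified with Salmon by the authors, per the labels and the study's methods. The authors deposited estimated counts per transcript as whole numbers, one column per library, with different totals. The sources used here do not give the versions of minimap2 or Salmon, the annotation release, or how strand and molecular identifiers were handled. Counting error is therefore the sole error that depth describes, and reads amplified by PCR are not independent molecules.

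Transcripts with at least 3 counts in a library were kept and summed per gene, and genes with at least 10 counts in 3 libraries and at least 2 kept transcripts were tested, so shares of all genes or transcripts refer to these. The robust quasi-likelihood F test of edgeR 4.0.16 with TMM factors was applied to genes and to transcripts, and its diffSpliceDGE to usage, with Benjamini-Hochberg adjustment over all features, in R 4.3.3. Standard errors were taken from the fold change and the F statistic. Shares were compared with two-sided exact permutation tests. Transcript classes, exons and sequences came from GENCODE release 29, which held all 61 CCT transcripts, 53 of them in the same version and 8 in another version. Python 3.11.15, pandas 2.3.3 and matplotlib 3.10.9 were used for tables and plots. The tests were checked on simulated data, where diffSpliceDGE found fewer of the lowered main transcripts than limma's diffSplice did.

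The subunits and all gene lists were chosen with earlier results of these data known. Transcripts were named if their mean IF reached 10% in a group, if they passed the transcript test with an absolute log2 fold change over 1, or if they passed the usage test with a dIF of at least 10 points. In the lists of partners the 2 to 4 genes of smallest p were named, and other changed members were named after their values were seen. Alternatives were RLE factors, library totals, DESeq2 1.42.0, other count filters, a transcript length offset, limma 3.58.1, IF divided by length, a replicate block and leaving out each library. The sum of near-equal transcripts was added after seeing the data.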

Additional observations from a re-analysis of the deposited data

How the results depend on the processing

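The number of CCT genes called was 1 (CCT8). It was 2 with RLE factors, DESeq2 or the stricter transcript filter (CCT7 and CCT8 in each), 2 with the length offset (CCT5 and CCT8), 4 with library totals alone (all higher), 0 with the limit on the log2 fold change, and 0 to 3 when each library was left out (0 without irradiated culture 3, 3 without control 3). The median log2 fold change of the 8 genes, -0.26, was -0.30 with RLE factors, -0.30 with DESeq2, -0.23 with the length offset and -0.30 to -0.23 without single libraries. With library totals it reversed to 0.19, and so did TCP1 (0.14), CCT2 (0.33), CCT3 (0.40), CCT5 (0.22), CCT6A (0.16), CCT7 (0.15) and CCT8 (0.036). CCT3 also reversed with the length offset (0.038). The 24 transcripts called became 6 with the limit on the log2 fold change, 27 with library totals (19 higher, 8 lower) and 14 to 34 without single libraries. The 4 isoforms called for usage became 8 with counts divided by length, 20 at the adjusted p alone and 0 to 8 without single libraries. Fewer samples enter each fit without a library, and the cause of the other shifts was not tested. CCT6A-202 was not called with limma (adjusted p = 0.0558) or with counts divided by length (dIF 6.50 points). The subunits with separate groups in the share of CCT counts (4) and in the share of classes other than protein-coding (7) had the same number with no filter and, for the second, with only classed transcripts, and 4 to 5 and 7 to 8 without single libraries.

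Replicate numbers did not pair the samples: same-numbered libraries had correlations of -0.005, 0.12 and 0.03 in their deviations from the group means. With the replicate block 2 genes (CCT7 and CCT8, CCT7 at an edgeR adjusted p of 0.0262) and 4 isoforms for usage were called.

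Depth limits the minor isoforms, several of which rest on fewer than 10 reads per library. Near-equal transcripts cannot be separated by their counts.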
